A study of Danio rerio with 16 samples.

Results

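The genes examined here start at or above 30 Mb on zebrafish chromosome 4, the region taken as its long arm (GRCz11 assembly), and were read in cultured sections of ovary. They were chosen by position alone, among genes on the primary assembly, with listed copies on alternate scaffolds left aside. The rule gave 741 genes of the 25083 listed in at least 1 of the 3 deposited tables, and 517 of the 741 were listed in all 3 tables. The 670 genes of chromosome 4 that start below 30 Mb served as the comparison.

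Sections were cultured for 6 h at 28 °C with PNX-20 (a phoenixin peptide, 100 nM) or with A8535 or PT-91 (5 µM each). The control received the solvent DMSO alone. A8535 and PT-91 are synthetic agonists of the orphan receptor SREB1. Each group held 4 libraries of polyadenylated RNA from wild-type adult females, and no group carried a genetic change. Each fish gave 5 ovary sections, and 4 of them were cultured, each under a different condition, so that libraries of different groups can come from the same fish. Which libraries share a fish is not given, and p-values measure only the spread between these libraries.

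The long arm of zebrafish chromosome 4 is known as heterochromatic and late replicating. It is crowded with repeated gene families, among them C2H2 zinc finger genes, whose products bind DNA, and genes of NLR proteins, a family that includes innate immune sensors. It also holds clusters of 5S ribosomal RNA genes, whose transcripts lack the polyadenylated tail that these libraries select. In fish of wild strains, a sex-associated locus has been placed near the end of this arm. Of the 741 genes, 277 were C2H2 zinc finger genes, 114 were NLR genes, 150 were noncoding RNA genes, 34 were pseudogenes, 16 were related to transposable elements, 9 encoded TRIM or other RING proteins, and 2 encoded GTPases of the GIMAP or another type. Another 55 encoded other described proteins and 84 were uncharacterized. Below 30 Mb, the same classes held 21 zinc finger, 6 NLR, and 99 noncoding genes, and 466 genes encoded other described proteins.

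Libraries held 10233870 to 15104959 counts, of which 44747 to 95492 fell on the long arm. The tissue exhibited strong expression of oocyte markers: all 12 were listed, with the egg coat gene zp3a.1 at 1519 to 3901 CPM (CPM, counts scaled to library size by the TMM method over all 16 libraries, the unit of all levels below). The 12 averaged from 8.44 CPM (nobox) to 2586 CPM (h1m), and the 9 listed follicle cell markers from 0.302 CPM (fshr) to 177 CPM (cyp11a1). The 4 leukocyte markers averaged from 0.0752 CPM (mpeg1.1) to 4.37 CPM (lcp1). Mitochondrial genes took 0.190% to 4.08% of counts, and 3 libraries stood above 3%: A8535 replicate 2 and PT-91 replicates 1 and 2, at 3.95%, 4.08%, and 3.98%. These 3 libraries also held the fewest detected genes (19254 to 19947 of all rows, against 21129 to 24394 in the other 13). A count of 0 in a library allows up to 3 counts, which is 0.179 to 0.332 CPM here, and this limit covers counting error only.

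Most genes of the long arm had few or no counted reads in the ovary. Of the 741, 307 overlap another listed gene, and 208 lie on the opposite strand of one. Overlaps are found among genes below 30 Mb as well. Reads of overlapping or repeated genes can be lost in counting, so a low count need not mean a silent gene. A gene was called detected with at least 0.5 CPM in at least 4 of the 16 libraries, and 202 of the 741 long-arm genes passed (27.3%), against 475 of the 670 genes below 30 Mb (70.9%) and 17816 of all 25083 genes (71.0%). On the long arm 330 genes (44.5%) stayed under 0.5 CPM in every library, against 107 (16.0%) below 30 Mb. The tables list only genes with at least 2 reads over their 8 libraries, so these shares are of listed genes. In single libraries 15.1% to 26.9% of long-arm genes reached 0.5 CPM (median 21.3%), against 58.5% to 65.8% of those below 30 Mb. The 2 ranges did not overlap. The median gene stood at 0.0507 CPM per kilobase of gene length on the long arm and at 1.09 CPM per kilobase below 30 Mb. On the log2 CPM scale the long-arm median was lower by 3.82 ± 0.27 (mean and SD of the difference over 16 libraries), and the difference ranged from -4.16 to -3.27. Many long-arm genes had no read, so this difference depends on the prior count of 2, and it was -5.56 with a prior count of 0.5.

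**Figure D1:**
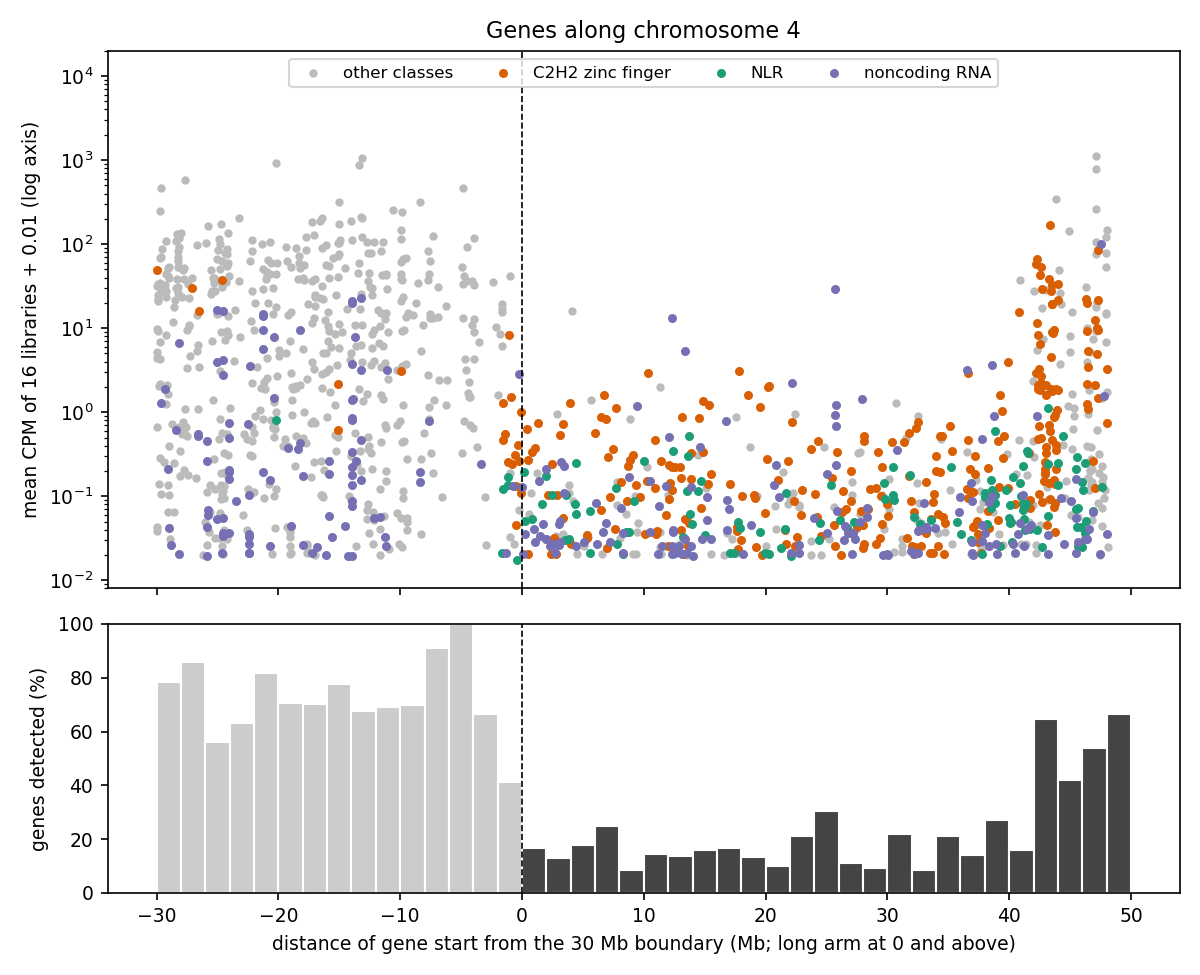
Upper panel, mean level over 16 libraries of each chromosome 4 gene (CPM + 0.01, log axis) against the distance of its start from the 30 Mb boundary (Mb), colored by class. Lower panel, percent of genes detected in bins of 2 Mb, long arm in dark gray. Detection was 8.33% to 30.4% in the bins from 0 to 42 Mb beyond the boundary and 42.1% to 66.7% in the last 4 bins, and it was 41.2% to 100% below the boundary.

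The low level was not uniform along the arm. Between 30 and 70 Mb, 79 of 491 genes were detected (16.1%), and each stretch of 10 Mb lay between 14.5% and 17.7%. From 70 Mb to the end, 123 of 250 genes were detected (49.2%). That last segment supplied 96.5% of the summed long-arm level, 4695 of 4865 CPM, and the 491 genes before it supplied 169 CPM. This split was set after the levels were seen. Detection was 70.1% between 20 and 30 Mb and 15.5% between 30 and 40 Mb, and it was 100% (19 genes), 66.7%, and 41.2% in the last 3 bins of 2 Mb before the boundary, with 16.7% in the first bin past it. The last gene below the boundary, LOC101886132 (noncoding, start 29965455), averaged 0.118 ± 0.209 CPM (SD, n = 16), and the first above it, LOC110439443 (noncoding, start 30103396), averaged 0.0103 ± 0.0412 CPM. LOC101886167, a zinc finger gene that spans the boundary from 29910478 to 30375720, averaged 0.984 ± 0.799 CPM. No test was made of these shares, since genes are not replicates.

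By number, zinc finger genes made up most of the 202 detected genes, and NLR genes hardly any. In the summed long-arm level, zinc finger genes held 20.5%, other described proteins 45.7%, and uncharacterized genes 28.5%. Of the long-arm zinc finger genes, 111 of 277 were detected (40.1%), against 13 of 21 below 30 Mb and 607 of 742 outside chromosome 4 (81.8%). From 70 Mb onward 64 of 87 were detected (73.6%), and between 30 and 70 Mb 47 of 190 (24.7%). The zinc finger genes with the highest levels per length were zgc:162948 (77253850 to 77260727; 56.3 CPM per kilobase), zgc:165515 (72205868 to 72218077; 44.1), and si:cabz01071911.3 (72271801 to 72287635; 39.5). NLR genes were detected in 6 of 114 cases (5.26%), against 48 of 114 outside chromosome 4 (42.1%), and none averaged above LOC103910999, which held 1.1 ± 1.16 CPM (SD, n = 16) and ranged from 0 to 5.01 CPM. From 70 Mb onward 4 of 41 NLR genes were detected, and before it 2 of 73. Noncoding genes were detected in 18 of 150 cases (12.0%) and genes of other described proteins in 30 of 55 (54.5%). Reads from near-identical copies can be shared or lost in counting, and the handling of multiply mapped reads is not given, so the levels of zinc finger and NLR genes are uncertain.

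**Figure D2:**
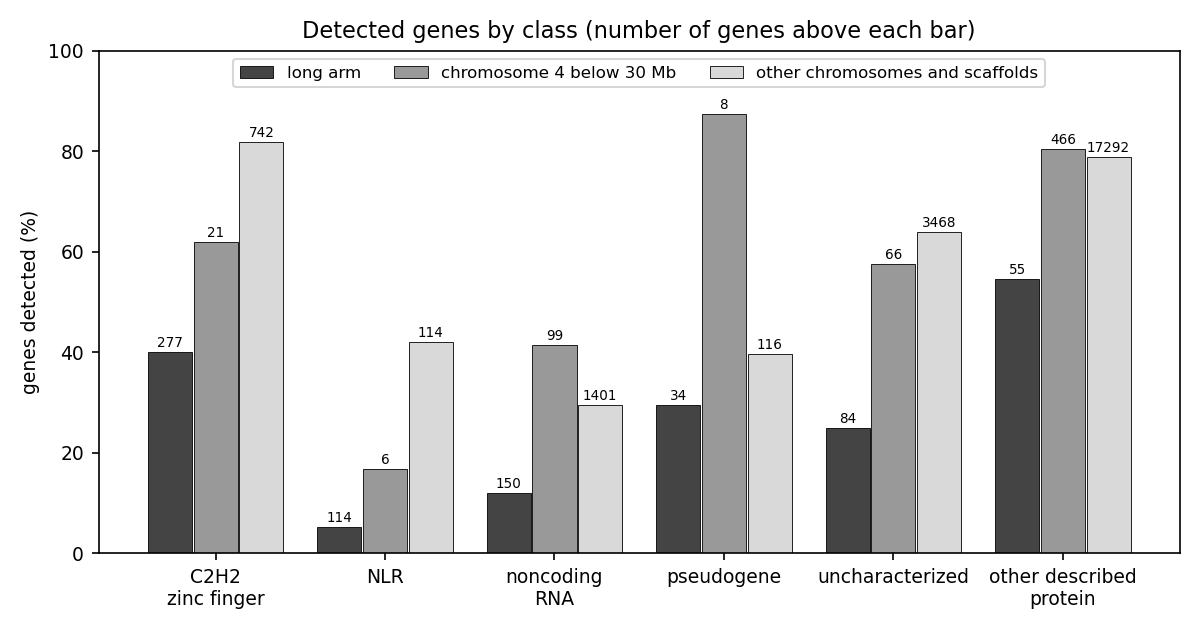
Percent of genes detected (at least 0.5 CPM in at least 4 of 16 libraries) by class, on the long arm, on chromosome 4 below 30 Mb, and on all other chromosomes and scaffolds, with the number of genes above each bar. Long-arm bars were lowest in each class plotted, for example 40.1% for zinc finger and 5.26% for NLR genes.

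A few genes near the end of the arm carried most of the reads. The 4 most abundant genes supplied 51.5% of the summed level and the 10 most abundant 67.7%. A cluster of 6 neighbors on the minus strand, from 77113384 to 77140052, picked after the levels were seen, supplied 48.4%: si:dkey-172k15.19, LOC110439410, LOC108179180, LOC100537972, LOC108184066, and LOC108179144. Apart from the uncharacterized si:dkey-172k15.19, they are annotated as mucin-5AC-like, mucin-2-like, chitinase-like, signaling mucin HKR1-like, and flocculation protein FLO11-like. Except for chitinase-like, these names describe similarity to serine- and threonine-rich proteins. None of the names describes a known role in fish. The part of the 6 genes in the long-arm level ranged from 30.3% to 65.9% under PNX-20, 41.6% to 60.4% under A8535, 29.3% to 50.8% under PT-91, and 34.4% to 68.9% in the control.

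LOC100537972 (chitinase-like, 77127438 to 77135103) was the most abundant. It held 1044, 939, 594, and 2695 CPM with PNX-20, 412, 1489, 751, and 1754 CPM with A8535, and 617, 751, 754, and 1083 CPM with PT-91, against 1959, 761, 839.6, and 1239 CPM in the control. The groups overlapped throughout. The second, si:dkey-172k15.19 (77113384 to 77116267), held 464, 375, 304, and 762 CPM with PNX-20, 1808, 1254, 358, and 552 CPM with A8535, and 513, 599, 396, and 376 CPM with PT-91, against 613, 333, 3478, and 489.5 CPM in the control. Control replicate 3 and A8535 replicates 1 and 2 stood above the other 13 libraries. Per kilobase, LOC110438638, a noncoding gene of 275 bases (77556399 to 77561596), was highest over the 16 libraries at 361 CPM per kilobase, but this rank rested on a few libraries: it averaged 863 ± 916 CPM per kilobase with PT-91, against 95.8 ± 117 in the control, where LOC101886419 averaged 247 ± 37.1 (SD, n = 4). It was followed by the uncharacterized LOC101886419 (73861235 to 73869684) at 321, LOC100537972 at 313, and si:dkey-172k15.19 at 304. Next in that order stood cct2 (148 CPM per kilobase), which encodes a subunit of the chaperonin that folds actin and tubulin. The SDs over libraries were large beside the gaps between neighbors in this order. Genes of general cell functions lay in the same end segment, with nup50, a nuclear pore component, at 145 ± 45.6 CPM, arfgap3, a regulator of vesicle traffic at the Golgi, at 121 ± 43.3 CPM, and terfa, a telomere binding protein, at 77.5 ± 28.3 CPM (SD, n = 16), the last picked after its values were seen.

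The first comparison was between treatments and the control in the share of counts on the whole arm. Long-arm genes took 0.467% ± 0.105 of counts in PNX-20 libraries, 0.512% ± 0.119 in A8535 libraries, and 0.450% ± 0.0560 in PT-91 libraries, against 0.496% ± 0.0836 in the control (SD, n = 4). Each difference from the control was smaller than the SD of the groups. A single library stood apart in the PNX-20 group, where replicate 4 held 0.623% and the others 0.390% to 0.428%. The summed level of zinc finger genes was 996 ± 112 CPM with PNX-20, 880.1 ± 472 CPM with A8535, and 1174 ± 556 CPM with PT-91, against 939.9 ± 190.0 CPM in the control. NLR genes summed to 7.16 ± 4.00 CPM under PNX-20, 18.8 ± 9.44 CPM under A8535, and 12.8 ± 3.76 CPM under PT-91, against 9.71 ± 3.93 CPM in the control. In bulk tissue, fewer cells of a type and less RNA per cell cannot be told apart.

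The sparse genes between 30 and 70 Mb varied with the library. All 491 together summed to 242, 124, 180.4, and 91.1 CPM with PNX-20, 113, 299, 214, and 108 CPM with A8535, and 271, 401, 133, and 125 CPM with PT-91, against 86.7, 158, 47.6, and 116 CPM in the control. The 3 highest sums were those of PT-91 replicates 2 and 1 and A8535 replicate 2, the libraries above 3% of mitochondrial counts, and the lowest was that of control replicate 3, which had the lowest mitochondrial share (0.190%). The part of this in the group means was not tested. The number of these genes at 0.5 CPM or above was 31 to 61 under PNX-20, 44 to 80 under A8535, and 53 to 95 under PT-91, against 18 to 53 in the control. From 70 Mb onward the number was 94 to 121 in all 16 libraries.

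Next, each gene was tested in edgeR (quasi-likelihood, 4 libraries against 4, Benjamini-Hochberg adjustment over all genes tested). Of the 741 genes, the filter on low counts left 111 in the PNX-20 comparison, 109 in that of A8535, and 121 in that of PT-91. A gene that is low in the control can pass that filter only through the treated libraries, so the counts and medians below describe genes that passed. No long-arm gene, and none of the 17118 to 17377 genes tested in a comparison, reached an adjusted p under 0.05 in edgeR. DESeq2 gave no long-arm gene either, and over all chromosomes it gave 19 genes with PNX-20, 3 genes with A8535, and 34 genes with PT-91. The counts below are therefore at an unadjusted p under 0.05.

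With PNX-20, 3 of 111 long-arm genes were higher and 0 lower. This was 2.70%, against 2.51% of all genes tested (1.3% higher and 1.21% lower) and 0% of the 391 tested below 30 Mb. DESeq2 gave 4 higher and 0 lower (3.60%), beside 652 of all 17118 genes tested. The median log2 fold change was 0.13 on the long arm and -0.02 over all genes. LOC108184065 (uncharacterized, 76386576 to 76387695) held 5.56, 18.4, 20, and 19.1 CPM in PNX-20 libraries and 2.23, 2.96, 0.389, and 9.27 CPM in control libraries (log2 ratio of the groups 2.08 with SE 0.82, adjusted p = 0.998). Replicate 1 with PNX-20 lay within the control range. The nuclear pore gene nup50 (74943140 to 74961852) held 133, 191, 255, and 195 CPM in PNX-20 libraries and 113, 155, 148, and 85.9 CPM in control libraries (log2 ratio of the groups 0.63 with SE 0.27, adjusted p = 0.998). PNX-20 replicate 1 again lay within the control range. The gene was called in 11 of 17 alternatives. It was not called without PNX-20 replicate 3 (log2 fold change 0.47) or control replicate 4 (0.49), nor without PNX-20 replicate 2 or 4 or control replicate 1. The third gene was si:ch73-389k6.1 (76304885 to 76335199), at 14.2, 22.9, 65.0, and 103 CPM with PNX-20 and 20.4, 25.2, 13.0, and 19.0 CPM in control libraries (log2 ratio of the groups 1.40 with SE 0.58, adjusted p = 0.998). Only PNX-20 replicates 3 and 4 exceeded the control here, and the log2 fold change was 0.81 and not called without replicate 4. The leukocyte marker lcp1, 1 of 2 of its list tested, was higher with PNX-20 (list sum 2.81 to 16.7 CPM, against 1.36 to 5.77 CPM in the control), and its part in the result was not tested. The count became 1 without control replicate 1, 10 without control replicate 2, and 5 without control replicate 3 or PNX-20 replicate 3 or 4.

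With A8535, 0 of 109 long-arm genes were higher and 1 lower. This was 0.917%, against 2.48% of all genes tested (1.76% higher and 0.719% lower) and 3% of the 400 tested below 30 Mb. DESeq2 gave 2 higher and 1 lower (2.75%), beside 707 of all 17377 genes tested. The median log2 fold change was 0.02 on the long arm and -0.04 over all genes. The gene was zgc:113209 (76416268 to 76423154), a zinc finger gene, which held 15.8, 10.5, 6.62, and 20.2 CPM with A8535, against 18.6, 29.7, 22.9, and 31.4 CPM in control libraries (log2 ratio of the groups -0.95 with SE 0.40, adjusted p = 0.999). The groups overlapped through A8535 replicate 4. The count was 0 without A8535 replicate 3 or control replicate 4, 2 without A8535 replicate 1, 9 without A8535 replicate 4, 3 without control replicate 1 or 3, and 4 without control replicate 2. Cell type markers also moved with A8535 at an unadjusted p under 0.05. Of 4 stroma markers tested, acta2 and myh11a were higher. The whole stroma list held 33.6 to 92.3 CPM in sum with A8535, against 15.1 to 38.9 CPM in the control. Of 8 follicle cell markers, nr5a1a was higher (28.8 ± 18.2 against 6.35 ± 2.95 CPM, SD, n = 4). The whole follicle cell list held 307 to 462 against 245 to 570.1 CPM in sum. Of 12 oocyte markers, zar1 was lower (695 ± 316 against 1274 ± 205 CPM). The whole oocyte list held 7065 to 10797 against 10593 to 13394 CPM in sum. The part of these markers in the result was not tested.

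With PT-91, 9 of 121 long-arm genes were higher and 1 lower, 8.26% against 6.81% of all genes tested (5.33% higher and 1.49% lower), and 7.58% of the 396 tested below 30 Mb. DESeq2 gave 13 higher and 1 lower (11.6%), beside 1598 of all 17276 genes tested. The median log2 fold change was 0.37 on the long arm, 0.05 below 30 Mb, and 0.00 over all genes, and 82 of the 121 values were positive. With PT-91 replicates 1 and 2 removed, a setting added once these values were known, the median was -0.12 and 3 genes were called. This refit kept only PT-91 replicates 3 and 4, and no share over all genes stands beside its count. The 2 libraries were picked by mitochondrial counts. The paper reports higher oxidative phosphorylation genes with PT-91, NADH dehydrogenase genes among them, so the removal may select on a response. Whether it does was not tested. Relative to the mean of the control, the median long-arm gene stood at 0.73, 0.56, 0.06, and 0.02 in the PT-91 libraries and at -0.02, 0.35, -0.26, and 0.18 in the control libraries. Replicates 1 and 2 alone lay above the control range. The count was 2, 5, or 22 when PT-91 replicate 1, 2, or 4 was left out, and it was 18 without control replicate 2, 5 without control replicate 3, and 6 without control replicate 4. The median became 0.18 when PT-91 replicate 1 was left out and 0.15 when replicate 2 was. At an unadjusted p under 0.05, 1 of 4 stroma markers (acta2) and 1 of 8 follicle cell markers (nr5a1a) were higher with PT-91. These averaged 35.1 ± 18.0 and 15.3 ± 8.75 CPM, against 16.0 ± 7.24 and 6.35 ± 2.95 CPM in the control (SD, n = 4). The whole stroma list held 26.4 to 76.4 CPM in sum with PT-91, against 15.1 to 38.9 CPM in the control. The whole follicle cell list held 284 to 492 against 245 to 570.1 CPM in sum. For oocytes, 1 of 12 was lower (zp2.1, 318 ± 94.8 against 685 ± 138 CPM). The whole oocyte list held 7876 to 13176 against 10593 to 13394 CPM in sum. The part of these markers in the result was not tested.

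**Figure D3:**
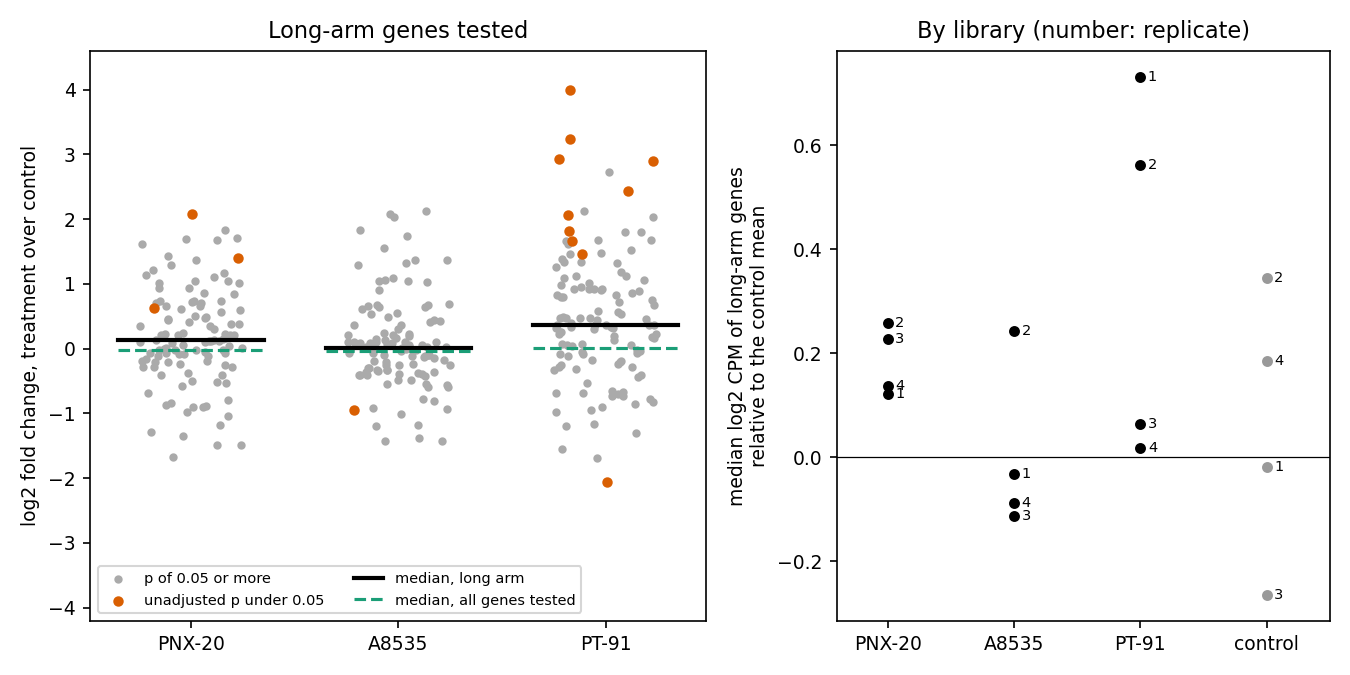
Left, log2 fold change of each long-arm gene tested with PNX-20 (111 genes), A8535 (109), and PT-91 (121) over the control, with orange points at an unadjusted p under 0.05, the long-arm median (black), and the median of all genes tested (green, dashed). Right, median log2 CPM of long-arm genes in each library relative to the control mean, with each treatment over its own tested genes and the control over those tested for PT-91. PT-91 replicates 1 and 2, at 0.73 and 0.56, lay above the control libraries over the same genes. The gene sets differ between treatments and depend on the filter, so points of different treatments are not comparable.

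The gene with the smallest p was si:dkeyp-44b5.2, a noncoding gene at 52148909 to 52154995. It held 1.06, 1.88, 9.03, and 1.65 CPM with PT-91, against 0.165, 0.480, 0, and 0.178 CPM in the control, so that the groups did not overlap (log2 fold change 4.00, SE 1.07, adjusted p = 0.712). It was called in each of 18 alternatives, which refit the same libraries. Its log2 fold change was 4.61 without PT-91 replicates 1 and 2. With control levels this low, the gene passed the filter only through the PT-91 libraries, so these refits are not separate support. Levels were also uneven in the other treatments, at 0.705, 2.18, 12.1, and 0 CPM with PNX-20 and 0, 0.522, 4.77, and 0.844 CPM with A8535, and the highest library was replicate 3 in each of the 3 treatments. Among the genes higher with PT-91 were 4 zinc finger genes between 36 and 50 Mb. Of these, znf1113 (48550344 to 49026535) held 3.60, 3.76, 2.78, and 2.22 CPM with PT-91, against 1.24, 1.44, 0.195, and 0.713 CPM in control libraries (log2 ratio of the groups 1.82 with SE 0.70, adjusted p = 0.712). The groups did not overlap, but znf1113 could not pass the filter on its control libraries alone, so this separation is not separate support. The gene znf973 (36774531 to 37246999) held 3.02, 6.31, 1.05, and 1.32 CPM with PT-91, against 0.495, 0.560, 0.0973, and 0.446 CPM in control libraries (log2 ratio of the groups 2.89 with SE 0.85, adjusted p = 0.712). With control levels this low, znf973 also passed the filter only through the PT-91 libraries, so its separation is not separate support. The other genes of this kind were LOC101886386 and LOC101884739, with log2 fold changes of 1.47 and 2.92 (SE 0.61 and 1.3). Without PT-91 replicates 1 and 2, none of the 4 was called, with log2 fold changes of 1.54 for znf973, 1.47 for znf1113, 0.88 for LOC101886386, and 0.93 for LOC101884739. LOC101884739 was at 1.81 without PT-91 replicate 2 alone and at 4.52 without control replicate 2. The annotated spans of znf973, znf1113, and LOC101886386 are 472, 476, and 1414 kb and overlap 6, 2, and 14 other listed genes. The libraries were directional, but whether counting used the strand is not given, so reads of overlapping genes may not be told apart.

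LOC110438638 held 472, 438, 29.8, and 9.88 CPM with PT-91, against 11.0, 74.7, 12.4, and 7.31 CPM in control libraries (log2 ratio of the groups 3.23 with SE 1.20, adjusted p = 0.712). Only replicates 1 and 2 exceeded the control, and its log2 fold change was -0.41 without them. The next highest of all libraries was A8535 replicate 2, at 193 CPM. A copy of this gene on an alternate scaffold held 60.2, 113, 11.9, and 3.54 CPM with PT-91, against 2.80, 23.4, 2.14, and 2.94 CPM in the control. The noncoding genes LOC110439627 and LOC101887070 had log2 fold changes of 2.43 and 2.06 (SE 0.96 and 0.90) and their highest PT-91 values in replicate 2, at 16.0 and 21.7 CPM. Without replicates 1 and 2 their log2 fold changes were 0.27 and -0.26, and without replicate 2 alone they were 1.32 and 0.59. LOC108179144, the FLO11-like neighbor, held 55.5, 15.1, 15.8, and 6.09 CPM with PT-91, against 15.1, 5.68, 2.43, and 6.15 CPM in control libraries (log2 ratio of the groups 1.66 with SE 0.74). It was at 0.75 without PT-91 replicate 1 and 0.59 without replicates 1 and 2, and no longer called. The gene that was lower, znf1015 (73542048 to 73548437), held 2.37, 3.65, 0.978, and 12.3 CPM with PT-91, against 8.65, 41.9, 14.0, and 21.4 CPM in control libraries (log2 ratio of the groups -2.06 with SE 0.79, adjusted p = 0.712). Its log2 fold change was -1.71 without PT-91 replicates 1 and 2, -1.92 without PT-91 replicate 1 alone, and -1.52 without control replicate 2, not called in any of these, and -3.14 without PT-91 replicate 4. In PNX-20 replicate 3 and A8535 replicate 3 it stood at 0.893 and 2.09 CPM, below the control as well. No long-arm gene was called in all 3 comparisons, which share the control libraries. With 1 call for A8535, at most 1 gene could have been shared, so this says little about a common response.

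PT-91 and A8535 were used at the same dose and time and were compared with each other in edgeR over all 16 libraries, while PNX-20 entered no such comparison because its dose differed. Of 159 long-arm genes, 6 were higher and 1 lower with PT-91 than with A8535. This was 4.40%, against 2.26% of all 19216 genes tested (1.52% higher and 0.739% lower) and 2.28% of the 438 tested below 30 Mb. No gene had an adjusted p under 0.05 in edgeR. DESeq2 gave 10 higher and 1 lower on the long arm at an unadjusted p under 0.05 (6.92%), beside 697 of all 19216 genes tested. It gave 2 genes in all at an adjusted p under 0.05, neither on the long arm. The zinc finger gene zgc:173615 (69231194 to 69320318) held 1.06, 9.85, 1.58, and 1.07 CPM with PT-91, against 0.361, 0.969, 0.119, and 0.591 CPM with A8535 (log2 fold change 2.71, SE 1.1, adjusted p = 0.967), and the value was 1.27 and not called without PT-91 replicate 2. The genes zgc:173607 and LOC110439631 were also among the 6. The annotated span of zgc:173607 is 856 kb and overlaps both zgc:173615 and LOC110439631 on the opposite strand. Reads of these genes may not be told apart, so these calls may not be separate. The aspartic protease gene nots (nothepsin, 78010696 to 78020284) held 0, 0.664, 0.978, and 0.0823 CPM with PT-91, against 1.17, 1.27, 0.238, and 15.4 CPM with A8535, where replicate 4 stood alone (log2 fold change -3.36, SE 1.30, adjusted p = 0.967). Without that library it was -1.03 and not called. LOC100334861 (described as a NACHT and LRR gene, listed as noncoding) was at 5.64 CPM in PT-91 replicate 1 and at or near 0 in the other PT-91 and all A8535 libraries, while it held 7.21, 5.70, 0, and 5.90 CPM with PNX-20. The count was 3 without A8535 replicate 1 or 3 or PT-91 replicate 1, 4 without PT-91 replicate 2, 11 without A8535 replicate 2 or PT-91 replicate 4, and 1 without the 3 libraries above 3% of mitochondrial counts. It was 2 with a block for the library number, which no source gives as a pairing.

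Levels on this arm were uneven between libraries of the same group. Among genes with an average log2 CPM of 2 to 4, the median SD within groups was 1.23 on the log2 scale for 29 long-arm genes, 0.73 for 101 genes below 30 Mb, and 0.79 for 3313 genes in all. At averages of 4 to 6 it was 0.71, 0.53, and 0.55, and at averages of 0 to 2, which held the most long-arm genes (44), it was 1.24, 1.16, and 1.14. Some genes were nearly absent from some libraries and plain in others. A gene under 0.25 CPM in at least 1 library and at 5 CPM or more in another was met in 8 of the 29 long-arm genes at averages of 2 to 4 (27.6%), against 6 of the 101 below 30 Mb (5.94%) and 218 of the 3313 in all (6.58%). At averages of 0 to 2, such genes numbered 14 of 44 (31.8%) on the long arm, 28 of 84 (33.3%) below 30 Mb, and 36.2% in all. These limits were set after the data were seen and no test was made. At averages of 0 to 6 the share was 22.9% on the long arm, 10.8% below 30 Mb, and 13.6% in all. Over all levels, 36 of the 159 long-arm genes kept by the filter on low counts were of this kind. Of the 36, 21 were zinc finger genes, a class that held 82 of the 159.

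**Figure D4:**
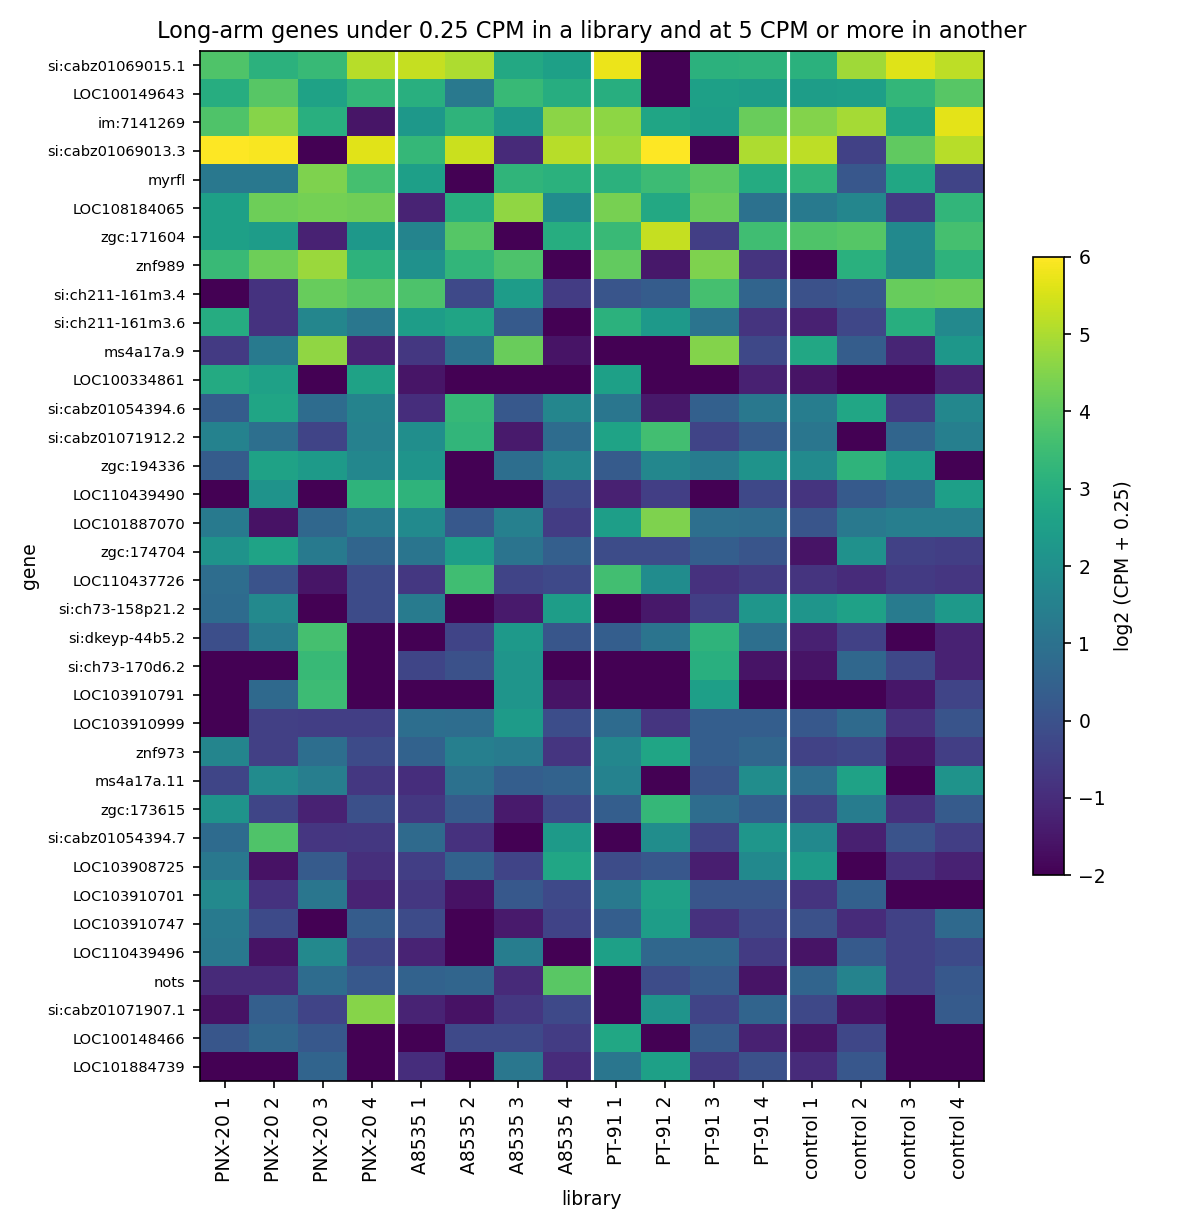
Level in each library (log2 of CPM + 0.25, color) of 36 long-arm genes kept by the filter on low counts. Each was under 0.25 CPM in at least 1 library and at 5 CPM or more in another. Libraries of PNX-20, A8535, PT-91, and the control run from left to right. High and low libraries were found within the same treatment, for example si:cabz01069013.3 was at 0, 0.238, and 0 CPM in replicate 3 of PNX-20, A8535, and PT-91 and at 120.2 CPM in PT-91 replicate 2.

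The libraries low or high for these genes were often the same across treatments. Apart from zgc:171604, the genes named here and znf989 were picked after their values were seen. The zinc finger gene si:cabz01069013.3 (74002176 to 74009156) held 67.0, 60.8, 0, and 49.5 CPM with PNX-20, 9.74, 40.8, 0.238, and 34.7 CPM with A8535, and 28.5, 120.2, 0, and 32.0 CPM with PT-91, against 36.7, 0.480, 16.3, and 34.7 CPM in the control. It was nearly absent in replicate 3 of each treatment and in control replicate 2. Also in the end segment lay zgc:171604 (73472271), another zinc finger gene. It was at 0.179, 0, and 0.451 CPM in the same 3 treated libraries and at 2.80 to 38.7 CPM in the other 13. The reverse was seen for ms4a17a.9 (76608795), a gene of the MS4A membrane protein family, which held 25.2, 17.8, and 22.7 CPM in replicate 3 of PNX-20, A8535, and PT-91 and 0 to 6.76 CPM elsewhere. For the noncoding gene LOC103910791 (57890982) these libraries held 10.9, 4.29, and 5.42 CPM, and the other 13 held 0 to 1.40 CPM.

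A second set of libraries was seen with znf989 (zinc finger, 73650999 to 73658462). It held 10.4, 18.5, 27.4, and 8.81 CPM with PNX-20, 3.88, 9.31, 13.3, and 0 CPM with A8535, and 16.8, 0.111, 21.5, and 0.329 CPM with PT-91, against 0, 8.24, 3.02, and 8.82 CPM in the control. It was thus at or under 0.329 CPM in A8535 replicate 4, PT-91 replicates 2 and 4, and control replicate 1. The copy of znf989 on an alternate scaffold held 24.6, 75.5, 32.0, and 27.7 CPM in these 4 libraries and at least 6.27 CPM in each of the 16. Only 14 of the 741 genes had listed copies on alternate scaffolds.

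These shared patterns extended to the whole arm. The 159 long-arm genes used were kept by the filter on low counts, run on all 16 libraries together, which does not ask for reads in each library. Over them, log2 values centered on each gene's mean were correlated between libraries, as a description in which all pairs share the genes and the centering. Of 120 pairs of libraries, 7 had Pearson's r between 0.64 and 0.79, and the other 113 had r between -0.37 and 0.32. All 7 joined libraries of different groups, and 4 of them libraries of the same number. PNX-20, A8535, and PT-91 replicates 3 formed a first set (r = 0.68 to 0.79), A8535 replicate 4, PT-91 replicate 4, and control replicate 1 a second (0.64 to 0.74), and A8535 replicate 1 with control replicate 3 a pair (0.70). The other 8 libraries were in no such pair. The 7 pairs stood out in the zinc finger genes alone (82 genes, r = 0.69 to 0.81, against at most 0.31 for other pairs) and in the other classes (77 genes, 0.53 to 0.82, against at most 0.38). Over 15908 genes outside chromosome 4 the same pairs had r between 0.37 and 0.79, and the highest of the other pairs was 0.36. Over 438 genes below 30 Mb they had 0.36 to 0.81, and other pairs reached 0.47. Sets of libraries that deviate together across groups go against the independence that the tests assume, and their part in the test results was not tested.

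**Figure D5:**
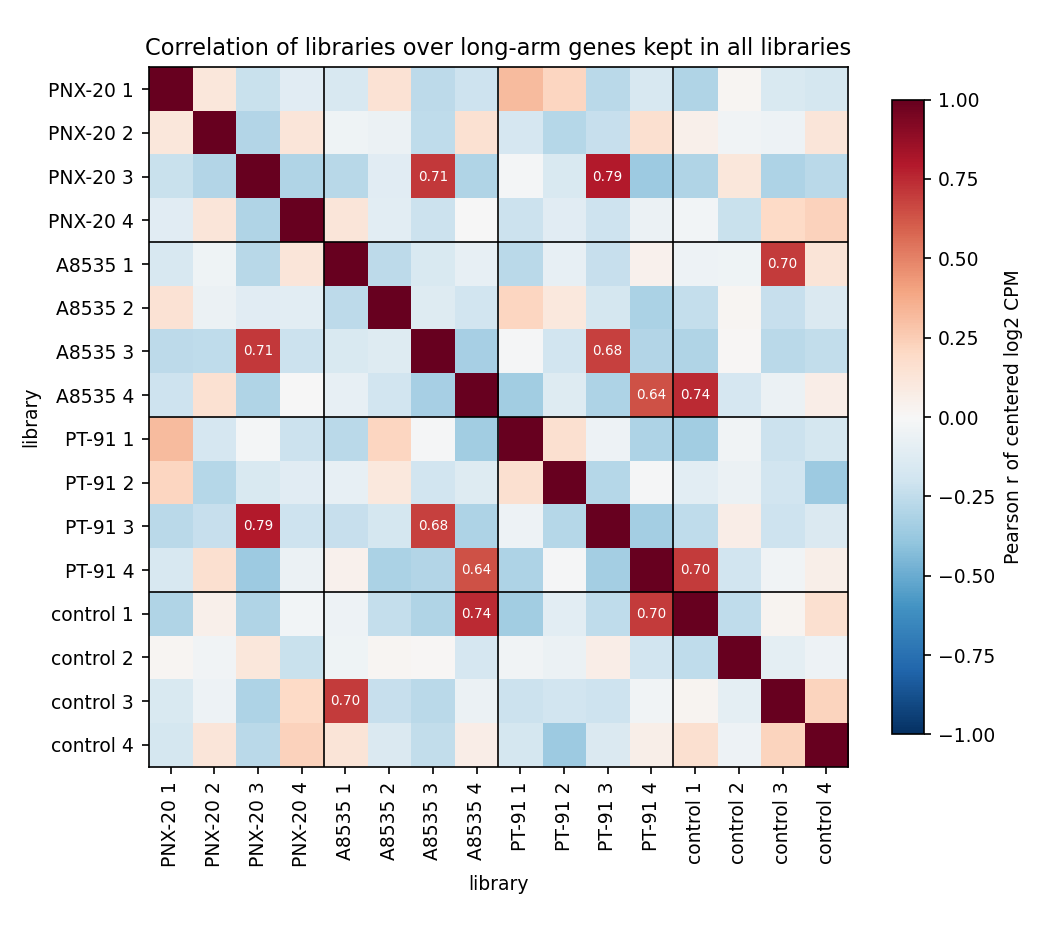
Pearson's r between each pair of the 16 libraries over 159 long-arm genes, on log2 CPM centered on the mean of each gene (color), with values printed where r was at least 0.5. The 7 pairs printed, from 0.64 to 0.79, joined libraries of different treatments and the control.

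Genes that act on such chromatin lie mostly elsewhere and were read from lists written from general knowledge. Of 30 genes of heterochromatin and silencing machinery, 28 were listed and all 28 were tested. With PNX-20, 0 were higher and 3 lower at an unadjusted p under 0.05 (1.3% and 1.21% over all genes tested): the chromatin remodelers hells (11.8 ± 7.82 CPM, against 45.7 ± 16.5 CPM in the control) and atrx (9.16 ± 8.21 against 40.3 ± 25.6 CPM) and the histone methyltransferase gene ehmt1a (64.0 ± 16.5 against 104.9 ± 25.1 CPM; SD, n = 4). With A8535, 0 were higher and hells alone was lower, at 8.74 ± 2.71 CPM (1.76% and 0.719% over all genes tested). With PT-91, cbx3b, which encodes a heterochromatin protein of the HP1 family, was higher and 0 were lower (5.33% and 1.49% over all genes tested), at 128 ± 60.2 CPM against 72.9 ± 20.7 CPM in the control. Without PT-91 replicates 1 and 2, 0 of 28 were higher and hells alone was lower (log2 fold change -1.45, SE 0.57). The list medians were -0.27, -0.11, and -0.31 on the log2 fold change scale for PNX-20, A8535, and PT-91, against -0.02, -0.04, and 0.00 over all genes tested. The gene hells has further copies: with copies added, its log2 fold change was -0.30 with PNX-20 (unadjusted p = 0.396, edgeR) and -0.79 with A8535 (unadjusted p = 0.0178). In the same setting with PT-91, 0 of 28 were higher and ehmt1a alone was lower (log2 fold change -0.63, unadjusted p = 0.0465, edgeR). There cbx3b was not called, at a log2 fold change of 0.82 (unadjusted p = 0.0565, edgeR). A member of this list, trim24, lies on the long arm itself (74141239 to 74205303) and averaged 26.1 ± 8.58 CPM (SD, n = 16), with no call in any comparison.

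Of 17 genes that transcribe or store 5S RNA, 15 were listed and 14 tested, and 0 were called with PNX-20 or A8535. With PT-91, 4 of 14 were higher (against 5.33% of all genes tested) and 0 lower: gtf3ab, which encodes a copy of the 5S transcription factor TFIIIA, gtf3c6, a TFIIIC subunit, and rpl5a and rpl11, ribosomal proteins that bind 5S RNA. The level of rpl11 was 952 ± 537 CPM with PT-91, against 421 ± 173 CPM in the control (SD, n = 4). The list median was 0.43. Without PT-91 replicates 1 and 2, none of 14 was called and the median was 0.11. With copies added, gtf3ab had a log2 fold change of -0.04 and 2 of 15 were called.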

How the data were processed

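Cultured zebrafish ovary was sequenced in 4 groups of 4 libraries. Per the submitters' processing notes and methods, reads were trimmed by fastp and mapped on GRCz11 by HISAT2 2.0.5, and the authors deposited raw counts per gene from featureCounts 1.5.0-p3. The FPKM values, made by the authors from counts and gene length, and the signal values, which are deposited counts divided by a size factor, were not used. The log2 fold changes and p-values deposited by the authors come from their own DESeq2 comparisons and were not used either.

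The 3 tables were joined on the gene ID. A gene absent from a table was set to 0 in its treated libraries, since each table lists genes with at least 2 reads in total. Control counts differed between tables in 0 genes. The counts were tested with edgeR 4.0.16 under R 4.3.3 (filterByExpr, TMM, robust quasi-likelihood F test, Benjamini-Hochberg over all genes tested), each treatment against the control in the 8 libraries of its table, and PT-91 against A8535 on genes shared by the tables. SE is the log2 fold change over the square root of F. Levels and group means are on the scale of all 16 libraries, with a prior count of 2 for log2 CPM. Depth limits the precision of low genes, and the spread between libraries limits the rest. Alternatives were RLE and upper quartile scaling, other filters, DESeq2 1.42.0, limma 3.58.1 (voom with quality weights), 1 fit of all libraries, added copies, other boundaries, a block for the library number, and each library left out. The tests were checked on simulated counts drawn independently for each library, so the check does not cover libraries that deviate together.

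The members and gene lists were chosen with earlier results of these data known. Genes named were the 10 highest per kilobase, the 8 higher and 8 lower with the smallest p in each comparison with an average log2 CPM not under 0, the 3 highest of each class, the 5 most uneven, the 3 on either side of the boundary, and list genes at an unadjusted p under 0.05. Only some of these are named, and others are named as chosen after their values were seen. No source gives the library numbers as pairs. Plots used matplotlib 3.10.9 in Python 3.11.15. Sequences were not used here.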

Additional observations from a re-analysis of the deposited data

Results flagged for a closer look

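Of 124 groups of 4 libraries examined, 22 (17.7%) held a library whose gap to the nearest other exceeded 0.829 of the group's range. A chance rate of about 1 in 20 applies to this limit only for independent values with a normal spread. CPM values here were often skewed, and many of the genes were named for their values in the same libraries. The rate expected by chance is therefore not known, and 17.7% cannot be read as an excess. All values but the last are CPM, and the cause of each was not tested.

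Replicate 3 stood apart in several treated groups. In PNX-20 replicate 3, arfgap3 held 197 (119 to 130.2 in the others) and the zinc finger gene LOC101884739 held 1.25 (0 in the others). In A8535 replicate 3, nup50 held 184 (104 to 111) and LOC101884739 held 2.03 (0 to 0.271). In PT-91 replicate 3, si:ch73-389k6.1 held 51.5 (11.7 to 17.5), si:dkeyp-44b5.2 held 9.03 (1.06 to 1.88), and zgc:173607 was the lowest at 0.376 (1.77 to 1.98).

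Among the other treated libraries, PNX-20 replicate 1 held 4.07 for the zinc finger gene zgc:173615 (0.179 to 0.726) and was lowest for LOC108184065 at 5.56 (18.4 to 20), and PNX-20 replicate 4 held 698 for the mucin-2-like gene LOC108179180 (94.3 to 149). A8535 replicate 2 held 99.5 for LOC108179144 (1.89 to 17.7), and A8535 replicate 4 held 15.4 for nots (0.238 to 1.27) and 0.676 for LOC101884520 (0 to 0.0902). A8535 replicate 1 held 0.0902 for LOC100334861, which had no read in the others and is under the limit that 3 counts set. PT-91 replicate 1 held 5.64 for LOC100334861 (0 to 0.165), and PT-91 replicate 2 held 9.85 for zgc:173615 (1.06 to 1.58).

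In the control, replicate 2 held 74.7 for LOC110438638 (7.31 to 12.4), 34.0 for LOC110439372 (3.21 to 7.40), and 2.80 for LOC110439627 (0.577 to 0.778). Control replicate 1 held 328 for LOC101886419 (244 to 258), and control replicate 3 held 3478 for si:dkey-172k15.19 (333 to 613). The share of counts on the long arm was 0.623% in PNX-20 replicate 4 (0.390% to 0.428% in the others).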

How the results depend on the processing

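The lower detection and level of the long arm, beside the rest of chromosome 4, kept its direction under every alternative run. Detection of long-arm genes and of genes below the boundary was 19.6% and 62.5% at 1 CPM, 60.5% and 88.2% at 1 read, 8.64% and 46.6% in all 16 libraries, and 31.2% and 75.8% for protein-coding genes. It was 16.1% for long-arm genes that start before 70 Mb, and 66.0% below a boundary of 35 Mb. The difference of median log2 levels was -5.56 with a prior count of 0.5, -2.98 per kilobase, -2.42 over genes kept by the filter, -4.11 with copies added, -4.41 for protein-coding genes, and -3.11 with a boundary of 35 Mb.

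Counts of long-arm genes at an unadjusted p under 0.05 were small and moved with most settings. With no filter, all listed long-arm genes entered: 599 for PNX-20, 637 for A8535, 612 for PT-91, and 517 for PT-91 versus A8535. Shares over all genes are not given for these settings, so their counts are not read as changes on the arm. For PNX-20 (3) the count was 5 in the fit of all 16 libraries, 7 in limma-voom, and 24 with no filter. For A8535 (1) it was 3 in DESeq2 and limma-voom, 4 in the fit of all 16 libraries, 23 with no filter, and 0 with the upper quartile. For PT-91 (10) it was 46 with no filter and 3 without the libraries above 3% of mitochondrial counts. For PT-91 versus A8535 (7) it was 3 in the 8 libraries of these groups, 11 in DESeq2, 19 with no filter, and 1 without the 3 libraries. With each library left out in turn, the counts ranged from 1 to 10 for PNX-20, 0 to 9 for A8535, 2 to 22 for PT-91, and 3 to 11 for PT-91 versus A8535. The median log2 fold change ranged from 0.12 to 0.19 for PNX-20, -0.08 to 0.15 for A8535, and 0.15 to 0.48 for PT-91. It was 0.27 for A8535 with no filter and -0.12 for PT-91 without the libraries above 3%. The difference in the share of counts (percentage points) ranged from -0.0810 to 0.00124 for PNX-20, -0.0396 to 0.0517 for A8535, and -0.0751 to -0.0155 for PT-91.

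With a replicate block the count was 3 for A8535 and 2 for PT-91 versus A8535, against 7 in that comparison without it. Over all genes kept, same-numbered libraries deviated from their group means with r of -0.28 to 0.24 for treatments and the control, and of -0.03, 0.26, 0.46, and 0.58 for PT-91 and A8535, so not every pair of numbers deviated together, and A8535 replicate 4 correlated more with control replicate 1 than with any library of its own number. The block moved no other count by over 1.5 times. Without the libraries above 3%, the log2 fold change turned to -0.41 for LOC110438638 and -0.26 for LOC101887070 with PT-91, and to -0.36 for LOC101887070 in PT-91 versus A8535. Of 342 alternative values for the 21 named calls, 210 stayed past the threshold, 129 kept their direction without passing it, and 3 reversed without passing it. Apart from what leaving out libraries shows, the cause of these changes was not tested.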
